A study of Homo sapiens with 6 samples.

Results

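Mitosis and kinetochore genes, a list of 50 genes that act from entry into mitosis to cytokinesis, were compared between SK-N-BE(2) cells with a hairpin against MYT1 and cells with a control hairpin. Members were the rows of the FPKM table whose Ensembl ID maps in GENCODE 29 to a listed symbol, and all 50 were found among 32434 gene IDs. FPKM, a fragment count scaled to exon length and library depth, is a level per length and can be compared between genes. SK-N-BE(2) is a human neuroblastoma line, a tumour line of the sympathetic nervous lineage. Total RNA was sequenced from 3 control libraries (shNC) and 3 MYT1 hairpin libraries (shMYT1). The treatment protocol, given alike for both groups, names lentiviral infection for 24 h and puromycin for 48 h, which removes cells that did not take up the vector. That protocol calls the cells a knockdown while the design text says knockout; the hairpin label is followed here. Whether replicates came from separate cultures is not labelled, so each p reflects the spread among these 6 libraries, which may be technical. Each result is bulk RNA, in which fewer dividing cells and less RNA per dividing cell cannot be told apart.

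Cells enter mitosis when CDK1 bound to A- and B-type cyclins is activated by CDC25 phosphatases, after which chromosomes condense and kinetochores, assembled on CENPA chromatin, attach to spindle microtubules. The spindle checkpoint holds the anaphase-promoting complex until each kinetochore is attached. Release of the checkpoint lets separase part the sister chromatids, and the central spindle and the contractile ring then divide the cell. Most of these genes are transcribed late in the cell cycle, and many carry in their promoters a CCAAT box, bound by NF-Y, and a cell cycle genes homology region (CHR), bound by the MuvB complex with MYBL2 and FOXM1. In neuroblastoma, cells that differentiate leave the cycle, so transcripts of this kind serve as a readout of proliferation.

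The libraries held 18.16 to 21.68 M fragments, fewer in shMYT1 (18.16 to 20.3 M) than in shNC (21.08 to 21.68 M). MYT1, which encodes a zinc-finger factor of neuronal differentiation, stood at 5.73, 5.12 and 5.18 FPKM in shNC replicates 1, 2 and 3 and at 4.20, 4.13 and 4.36 FPKM in shMYT1. It fell by 20.8% (log2 fold change -0.28, SE 0.051, limma adjusted p = 0.0102), with no overlap between groups (exact two-sided permutation p = 0.1, the smallest that 3 against 3 allows). PKMYT1, the CDK1-inhibiting kinase that shares the alias MYT1, did not pass (log2 fold change -0.014, limma adjusted p = 0.859). All 9 sympathetic neuroblast markers were at 1 FPKM or more, and their sum, most of it MYCN, was 2946 to 3100 FPKM in the controls and 2546 to 2647 with the MYT1 hairpin. Of 8 fibroblast and smooth muscle markers 7 reached 1 FPKM, and their sum was 164 to 168 FPKM in the controls and 118 to 121 with the MYT1 hairpin. Most of that gap is LUM (mean 97.7 against 54.6 FPKM), while COL1A2, COL3A1, ACTA2 and TAGLN had higher means with the MYT1 hairpin. The part of these marker shifts in the results that follow was not tested. The 3 haematopoietic markers summed to 0.071 to 0.156 FPKM in shNC and to 0.083 to 0.958 in shMYT1, and of 4 epithelial markers 1, EPCAM, reached 1 FPKM.

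Of the 50 mitosis genes, 17 fell in shMYT1 and 0 rose, at a limma adjusted p under 0.05 adjusted over all 14106 genes tested. The fit used log2(FPKM + 1), and every fold change below is shMYT1 minus shNC on that scale. The 17 genes were CCNB2, AURKB, BIRC5, BUB1B, CENPA, CENPN, SPC24, KIF20B, KIF20A, KIF23, ANLN, PRC1, RACGAP1, TOP2A, SMC2, NCAPG and NCAPH. They make up 34% of the members, beside 12.3% of all tested genes that fell and 11.9% that rose. Among the 7167 tested genes within the members' range of mean FPKM (5.67 to 151), 15.4% fell and 14.3% rose. At a limma adjusted p under 0.01, 7 of the 50 members fell, beside 5.20% of all tested genes. Without an adjustment for multiple tests, 27 of the 50 members were lower and 1, CDC20, was higher at a limma p under 0.05. Of all tested genes 18.9% were lower and 18.0% higher at that limma p. The count test voom, run on fragments recovered from the FPKM values, called 25 of 48 members lower and 0 higher, beside 16.1% of all genes called lower. Its 25 hold 16 of the 17, with KIF23 not testable there, and 9 more: CCNB1, INCENP, TTK, SPC25, KIF4A, TPX2, ECT2, SMC4 and MKI67.

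The falls were shallow. Among the 17 genes the change ran from -8.37% for KIF20A, a kinesin of the central spindle, to -24.9% for KIF20B, with log2 fold changes from -0.37 to -0.12. The median log2 fold change of all 50 members was -0.097, and 43 of the 50 lay below 0. Over all tested genes the median was -0.0048, and 51% lay below 0. In 24 of the 50 members each shMYT1 library lay below each shNC library, beside 21.8% of all tested genes and 24.9% of those in the members' range. No member had each shMYT1 library above each shNC library, beside 20.5% of all tested genes. The widest value in the upward direction was CDC20 at 0.11. The 17 genes that fell and the 33 that did not pass had similar levels and lengths, with median FPKM of 30.3 and 35.0 and median exon lengths of 4476 and 4314 bases.

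**Figure D1:**
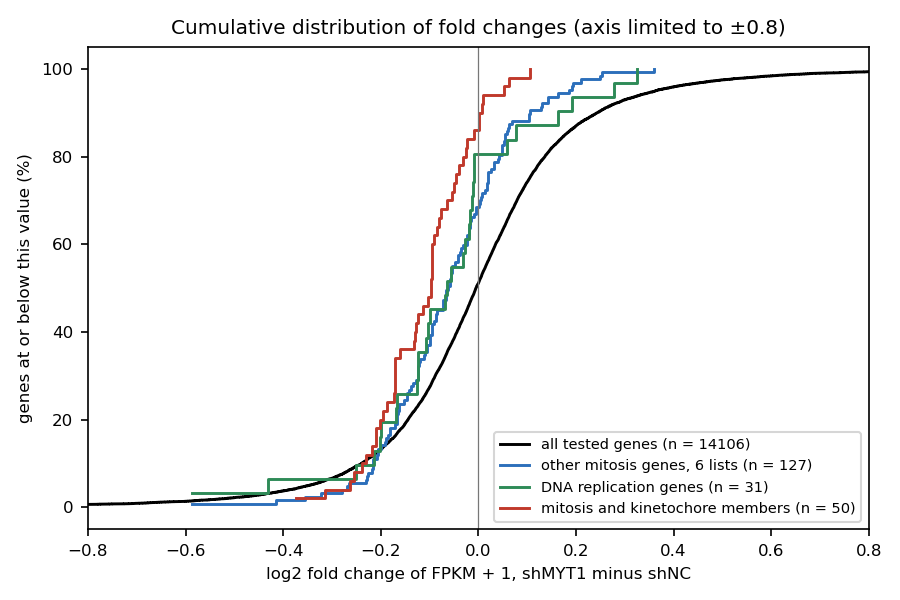
Cumulative share of genes (y axis, percent) at or below each log2 fold change of FPKM + 1, shMYT1 minus shNC (x axis), for the 50 members and for other sets of tested genes named in the legend. The members' median is -0.097 and that of all 14106 tested genes -0.0048, and the members' values run from -0.37 to 0.11.

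Promoter sequence is shown for members of both kinds, those that fell and those that did not, since the genes share promoter elements. RefSeq promoters of GRCh38.p14, running from 250 bases before to 50 bases after a gene's start, were matched for 42 of 50 members. AURKA, FOXM1, BIRC5, BUB3, TTK, UBE2C, TPX2 and RACGAP1 were not matched. Each sequence below runs 5′ to 3′ on the gene's strand over the 110 bases before the start, and capitals mark a CHR (TTTGAA or TTCGAA, or TTCAAA on the other strand) or a CCAAT box (CCAAT, or ATTGG on the other strand). The first 5 are the genes with the deepest falls among those with a whole CHR inside the last 60 bases before the start, which leaves out SMC2, whose CHR at -3 runs across it: ANLN at chr7:36389752-36389861 (+), KIF23 at chr15:69414239-69414348 (+), CENPA at chr2:26785946-26786055 (+), CCNB2 at chr15:59105036-59105145 (+) and NCAPG at chr4:17810869-17810978 (+). The last 3, picked likewise, did not pass and had the smallest absolute fold changes: CDCA8 at chr1:37692406-37692515 (+), PLK1 at chr16:23678779-23678888 (+) and KIF18A at chr11:28108157-28108266 (minus strand).
ANLN: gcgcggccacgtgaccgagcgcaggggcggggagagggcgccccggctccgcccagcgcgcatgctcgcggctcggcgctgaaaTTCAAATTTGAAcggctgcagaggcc
KIF23: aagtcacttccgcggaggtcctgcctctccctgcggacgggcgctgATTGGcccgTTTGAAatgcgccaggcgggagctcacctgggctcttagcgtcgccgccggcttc
CENPA: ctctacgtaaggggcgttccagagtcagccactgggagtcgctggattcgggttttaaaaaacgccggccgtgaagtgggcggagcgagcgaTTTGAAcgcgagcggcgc
CCNB2: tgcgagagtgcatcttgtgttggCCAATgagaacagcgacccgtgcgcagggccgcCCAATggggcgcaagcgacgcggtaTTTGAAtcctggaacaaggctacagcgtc
NCAPG: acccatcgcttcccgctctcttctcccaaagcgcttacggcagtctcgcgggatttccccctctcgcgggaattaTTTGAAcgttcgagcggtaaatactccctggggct
CDCA8: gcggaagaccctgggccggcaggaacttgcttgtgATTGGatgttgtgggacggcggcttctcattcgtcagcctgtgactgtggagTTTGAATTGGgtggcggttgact
PLK1: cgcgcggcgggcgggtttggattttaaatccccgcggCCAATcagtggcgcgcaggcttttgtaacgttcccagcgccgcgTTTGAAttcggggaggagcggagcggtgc
KIF18A: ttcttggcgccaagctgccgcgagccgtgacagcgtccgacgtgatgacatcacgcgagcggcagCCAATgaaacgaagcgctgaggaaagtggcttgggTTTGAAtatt

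In CCNB2 and PLK1 the CHR begins at the same distance from the start, position -29, with a CCAAT box further out. CCNB2 fell while PLK1 did not pass. ANLN holds a pair of adjoining CHR matches on opposite strands, at -26 and -20, and no CCAAT box in the 110 bases shown. In CDCA8 the CHR at -23 and a reverse CCAAT box at -18 share a base. A CHR was found in 30 of 42 member promoters (71.4%), beside 11.5% of 13536 promoters of tested genes and 16.4% of 35116 promoters in all. A CCAAT box was found in 31 of 42 (73.8%), beside 35.0% and 34.6%. Both were found in 23 of 42 (54.8%), beside 4.76% and 6.38%. Among the members that fell, 11 of 15 (73.3%) held a CHR and 11 of 15 a CCAAT box, and among those that did not pass it was 19 of 27 (70.4%) and 20 of 27 (74.1%). Both motifs together were found in 7 of 15 that fell (46.7%) and in 16 of 27 that did not pass (59.3%). A CHR beginning within 60 bases before the start, a window chosen after the positions were seen, was found in 8 of 15 that fell and 11 of 27 that did not. In that window 2.09% of promoters of tested genes and 3.17% of all promoters held one. These shares were not tested against each other. A match is a string of letters and no measured binding.

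**Figure D2:**
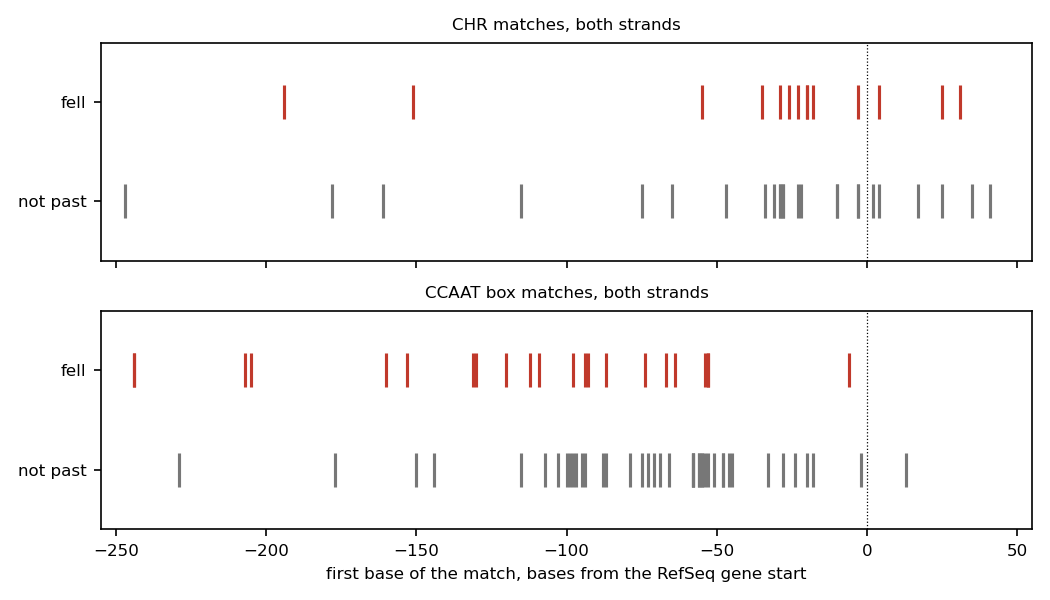
First base of each CHR match (upper panel) and CCAAT box match (lower panel), in bases from the RefSeq gene start (x axis, dotted line at the start), for members that fell (red) and members that did not pass (grey). CHR matches gather in the last 60 bases before the start in both rows, where 8 of 15 genes that fell and 11 of 27 others have one.

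Of 9 genes of mitotic entry, 1 fell. CCNB2 (ENSG00000157456, chromosome 15, 59105078 to 59125045, plus strand), which encodes cyclin B2, stood at 45.1, 45.7 and 44.2 FPKM in shNC and at 38.0, 37.4 and 41.0 in shMYT1. The groups did not overlap, with means of 44.97 ± 0.745 and 38.8 ± 1.98 FPKM (SD, n = 3; log2 fold change -0.21, SE 0.040, limma adjusted p = 0.0117). Its partner paralog CCNB1, the more abundant B-type cyclin, stood at 90.3, 88.8 and 87.6 FPKM in shNC and at 81.1, 86.0 and 82.4 in shMYT1. Here too the groups did not overlap, but the log2 fold change of -0.095 did not pass (95% interval -0.17 to -0.023, limma adjusted p = 0.0623). CDK1, the kinase that both cyclins activate, gave 43.1, 41.2 and 39.8 FPKM in shNC and 38.8, 40.6 and 36.0 in shMYT1. Its groups overlapped (log2 fold change -0.10, SE 0.051, limma adjusted p = 0.191). FOXM1, a transcription factor of late cell cycle genes, gave 37.2, 37.1 and 38.5 FPKM against 36.3, 35.7 and 37.7, with an interval of -0.11 to 0.035 around -0.040 (limma adjusted p = 0.404).

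The other 5 entry genes did not pass. They were the S and G2 cyclin CCNA2 (log2 fold change -0.050), the CDK1-activating phosphatases CDC25B (0.053) and CDC25C (0.0091), and the mitotic kinases AURKA (-0.055) and PLK1 (-0.0088). For PLK1, at 25.7 ± 1.72 FPKM in shNC and 25.5 ± 1.30 in shMYT1, the 95% interval of the log2 fold change was -0.14 to 0.13. The CCNB2 value of -0.21 lay below the PLK1 interval, but its own 95% interval, -0.30 to -0.11, overlapped that of PLK1. The genes were not tested against each other.

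The chromosomal passenger complex, which corrects faulty kinetochore attachments and later marks the site of cleavage, has 4 subunits, of which 2 fell. BIRC5 (ENSG00000089685, chromosome 17, 78214186 to 78225636, plus strand) encodes survivin, the subunit that docks the complex on the centromere. It gave 50.6, 53.6 and 54.3 FPKM in shNC and 43.1, 45.5 and 43.8 in shMYT1. With no overlap, it fell by 16.5% (52.8 ± 1.97 to 44.1 ± 1.251 FPKM, log2 fold change -0.25, SE 0.037, limma adjusted p = 0.00416). The kinase subunit AURKB (ENSG00000178999, chromosome 17, 8204733 to 8210600, minus strand) gave 47.9, 46.5 and 49.1 FPKM against 40.5, 40.1 and 43.8. It fell by 13.3%, again without overlap (log2 fold change -0.20, SE 0.041, limma adjusted p = 0.0149). The scaffold INCENP stood at 36.7, 35.6 and 37.1 FPKM in shNC and 32.9, 32.5 and 35.5 in shMYT1, groups that did not overlap but a difference that did not pass (log2 fold change -0.11, limma adjusted p = 0.0807). CDCA8, which encodes borealin, did not pass, at 27.6, 26.9 and 28.1 FPKM against 27.7, 26.7 and 28.2. The 95% interval of its log2 fold change was -0.076 to 0.079, beside -0.34 to -0.17 for BIRC5 of the same complex.

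Of 5 spindle checkpoint genes, 1 fell. BUB1B, which encodes the checkpoint protein BubR1, stood at 31.6, 32.5 and 31.0 FPKM in shNC and at 28.5, 29.4 and 28.9 in shMYT1, without overlap (log2 fold change -0.13, SE 0.029, limma adjusted p = 0.0218). TTK, the kinase that starts checkpoint signalling, had a lower log2 fold change of -0.21 but a wider spread, 15.6, 15.3 and 14.2 FPKM against 12.6, 14.2 and 11.8, and did not pass (SE 0.069, limma adjusted p = 0.0698). BUB3, the partner of BUB1 and BubR1 at the kinetochore, gave 32.8, 32.5 and 31.8 FPKM against 32.1, 32.6 and 30.9, with an interval of -0.096 to 0.048. The kinase gene BUB1 (-0.045) and MAD2L1 (-0.077), whose product inhibits CDC20, did not pass either.

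None of the 4 genes of anaphase promotion and sister separation passed with limma or voom, and at an unadjusted limma p under 0.05 there were 0 lower and 1 higher. The higher one was CDC20, the activator of the anaphase-promoting complex, at 49.2, 49.0 and 53.4 FPKM in shNC and 53.4, 54.8 and 55.3 in shMYT1. The third shNC library was level with the lowest shMYT1 library (log2 fold change 0.11, 95% interval 0.014 to 0.20, limma adjusted p = 0.0941). Without that shNC library the value was 0.15 and passed (limma adjusted p = 0.0173). CDC20 lies on chromosome 1 among tested genes with a median log2 fold change of 0.10. With that running median over 51 neighbours subtracted, the value of CDC20 was 0.012 (limma adjusted p = 0.825). UBE2C, the ubiquitin-conjugating enzyme of that complex and the member with the second highest level, gave 138, 145 and 158 FPKM against 132, 136 and 145, so the groups overlapped (log2 fold change -0.090, limma adjusted p = 0.307). PTTG1, which encodes the separase inhibitor securin (-0.024), and ESPL1, which encodes separase (-0.084), did not pass.

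Among 9 centromere and kinetochore genes, 3 fell. CENPA (ENSG00000115163, chromosome 2, 26764289 to 26801067, plus strand), the histone H3 variant that marks the centromere, stood at 32.5, 33.2 and 34.3 FPKM in shNC and at 28.1, 28.8 and 28.6 in shMYT1. The shMYT1 libraries lay within 1 FPKM of each other and below each control (33.3 ± 0.885 to 28.5 ± 0.352 FPKM, log2 fold change -0.22, SE 0.030, limma adjusted p = 0.00326). That is the smallest adjusted p of the 50 members. Exons of CENPA overlap those of SLC35F6 on the same strand, so fragments there cannot be assigned with certainty. CENPN (ENSG00000166451, chromosome 16, 81006498 to 81033114, plus strand), which reads CENPA chromatin for the inner kinetochore, gave 9.87, 9.51 and 9.81 FPKM against 8.27, 8.16 and 7.40. It fell by 18.3% with no overlap (log2 fold change -0.26, SE 0.047, limma adjusted p = 0.00907). SPC24, a subunit of the microtubule-binding NDC80 complex, gave 27.98, 27.8 and 30.2 FPKM against 25.1, 26.9 and 24.6 (log2 fold change -0.16, SE 0.047, limma adjusted p = 0.0490). SPC24 lies on chromosome 19 among tested genes with a median log2 fold change of -0.11, and with that running median over 51 neighbours subtracted its value was -0.049 (limma adjusted p = 0.573).

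The other NDC80 complex genes had log2 fold changes of -0.13 for NDC80, -0.17 for SPC25 and -0.064 for NUF2, and none of them passed. NDC80 itself had groups without overlap (10.4, 9.58 and 9.31 FPKM against 8.78, 9.21 and 8.52, limma adjusted p = 0.108). SPC25 gave 26.0, 25.2 and 22.7 FPKM against 20.9, 23.6 and 20.8, with overlap (limma adjusted p = 0.109). The inner kinetochore subunit CENPK (0.063), the kinesin CENPE (-0.031) and the large outer kinetochore protein CENPF (0.0021) did not pass. CENPF was among the more abundant members at 60.9 ± 2.71 FPKM in shNC and 61.0 ± 2.03 in shMYT1, and the 95% interval of its log2 fold change was -0.096 to 0.10.

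Among 7 mitotic kinesins and spindle factors, 1 fell, and it had the lowest fold change of the list. KIF20B (ENSG00000138182, chromosome 10, 89701610 to 89774939, plus strand), a kinesin of late mitosis and cytokinesis, stood at 11.4, 10.6 and 10.1 FPKM in shNC and at 8.09, 8.67 and 7.39 in shMYT1. The groups did not overlap and the mean fell by 24.9% (10.7 ± 0.642 to 8.05 ± 0.637 FPKM, log2 fold change -0.37, SE 0.064, 95% interval -0.53 to -0.22, limma adjusted p = 0.00793). Between 900 and 1679 fragments per library stood behind these values. The spindle assembly factor TPX2, an activator of AURKA, gave 84.1, 80.0 and 80.2 FPKM against 75.7, 75.9 and 77.0, without overlap, and lay just outside the threshold (log2 fold change -0.094, limma adjusted p = 0.0534). The chromokinesin KIF4A also had groups without overlap, at 19.5, 19.8 and 18.7 FPKM against 17.7, 18.4 and 16.5, and did not pass (-0.13, limma adjusted p = 0.0849). The bipolar spindle motor KIF11 (-0.098), the chromosome-aligning kinesin KIF18A (-0.080), the microtubule depolymerase KIF2C (0.0067) and HMMR, which encodes a spindle-associated hyaluronan receptor (-0.095), did not pass.

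Among 6 central spindle and cytokinesis genes, 5 fell: ANLN, KIF23, PRC1, RACGAP1 and KIF20A. ANLN (ENSG00000011426, chromosome 7, 36389806 to 36453791, plus strand) encodes anillin, the scaffold of the contractile ring, and its promoter is the one above with the paired CHR. It gave 19.4, 18.7 and 18.6 FPKM in shNC and 15.4, 15.9 and 13.9 in shMYT1. It fell by 20.5% with a wide gap between groups (18.9 ± 0.448 to 15.0 ± 1.01 FPKM, log2 fold change -0.31, SE 0.051, limma adjusted p = 0.00618). KIF23 (ENSG00000137807, chromosome 15, 69414246 to 69448427, plus strand), the motor subunit of centralspindlin, gave 16.2, 15.5 and 15.3 FPKM against 13.4, 13.4 and 12.8 (log2 fold change -0.23, SE 0.036, limma adjusted p = 0.00559). RACGAP1, the other centralspindlin subunit, gave 39.0, 38.5 and 39.3 FPKM against 34.8, 36.0 and 32.7 (-0.17, SE 0.039, limma adjusted p = 0.0211). Thus both subunits of centralspindlin were lower in each shMYT1 library than in any control.

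PRC1 (ENSG00000198901, chromosome 15, 90966038 to 90995629, minus strand), which bundles the antiparallel microtubules of the central spindle, gave 42.2, 44.7 and 42.5 FPKM in shNC and 37.3, 38.7 and 37.3 in shMYT1. Its groups did not overlap (log2 fold change -0.19, SE 0.033, limma adjusted p = 0.00883). KIF20A, the kinesin that carries the passenger complex to the central spindle, gave 40.8, 40.9 and 39.6 FPKM against 36.3, 37.2 and 37.6, also without overlap (-0.12, SE 0.027, limma adjusted p = 0.0202). ECT2, the exchange factor that activates RhoA at the cleavage site, did not pass: 28.2, 27.98 and 24.6 FPKM against 23.4, 25.1 and 22.8, with the third shNC library inside the shMYT1 range (-0.17, limma adjusted p = 0.0927).

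Of 6 genes of chromosome structure with the proliferation marker MKI67, 4 fell. TOP2A (ENSG00000131747, chromosome 17, 40388516 to 40417950, minus strand), the topoisomerase that untangles sister chromatids and the most abundant member, stood at 165, 161 and 156 FPKM in shNC and at 140, 149 and 138 in shMYT1. It fell by 11.2% without overlap (160 ± 4.29 to 142 ± 5.77 FPKM, log2 fold change -0.17, SE 0.037, limma adjusted p = 0.0180). The condensin subunits, which compact chromosomes, were SMC2, SMC4, NCAPG and NCAPH, and 3 of them fell. SMC2 gave 21.6, 21.3 and 20.8 FPKM against 17.6, 19.7 and 16.4 (log2 fold change -0.24, SE 0.064, limma adjusted p = 0.0369). NCAPG gave 27.7, 26.7 and 26.0 FPKM against 23.7, 24.4 and 21.8 (-0.19, SE 0.047, limma adjusted p = 0.0263). NCAPH gave 31.2, 31.9 and 30.9 FPKM against 27.3, 29.02 and 26.9 (-0.17, SE 0.036, limma adjusted p = 0.0165). None of those 3 overlapped between groups. The core ATPase SMC4 did not pass, at 41.4, 40.8 and 38.1 FPKM against 37.8, 39.0 and 35.6 (-0.096, limma adjusted p = 0.183). MKI67, which encodes the Ki-67 antigen used to score proliferation, gave 58.7, 56.5 and 55.8 FPKM against 53.9, 52.2 and 53.6. Its groups did not overlap, and the log2 fold change of -0.096 (95% interval -0.17 to -0.026) lay just outside the threshold (limma adjusted p = 0.0557).

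**Figure D3:**
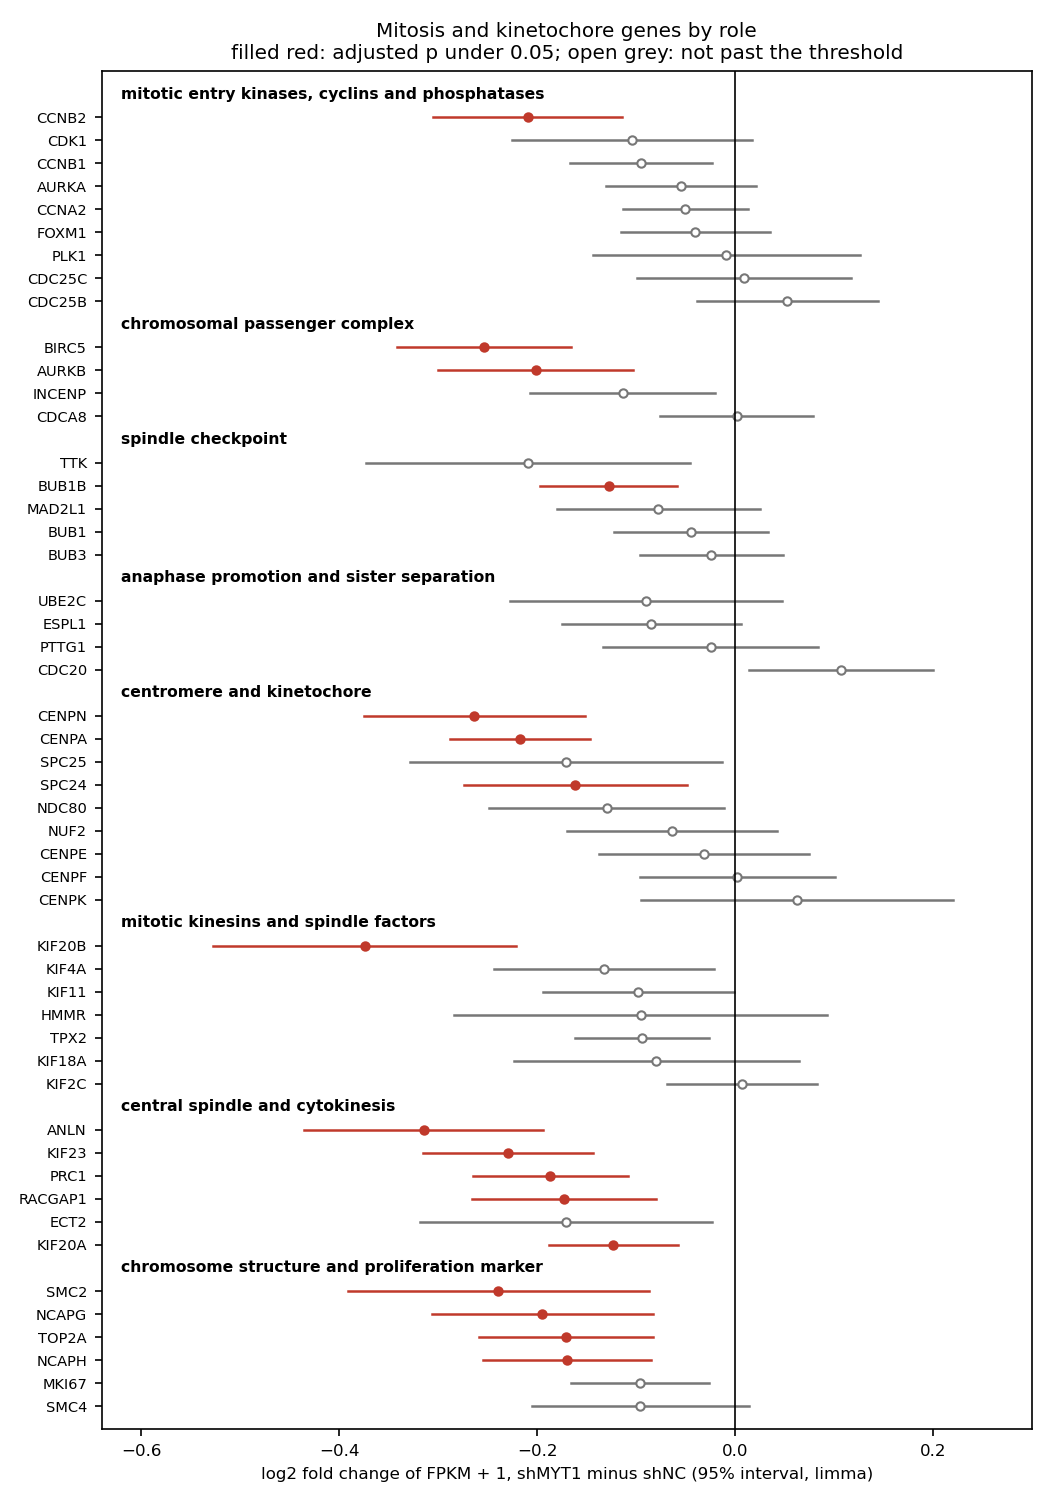
Log2 fold change of FPKM + 1, shMYT1 minus shNC (x axis), with its 95% interval for each of the 50 members, grouped by role (y axis); filled red points passed at a limma adjusted p under 0.05 and open grey points did not. The cytokinesis group has 5 of 6 filled points and the anaphase group none, and KIF20B lies furthest left at -0.37.

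**Figure D4:**
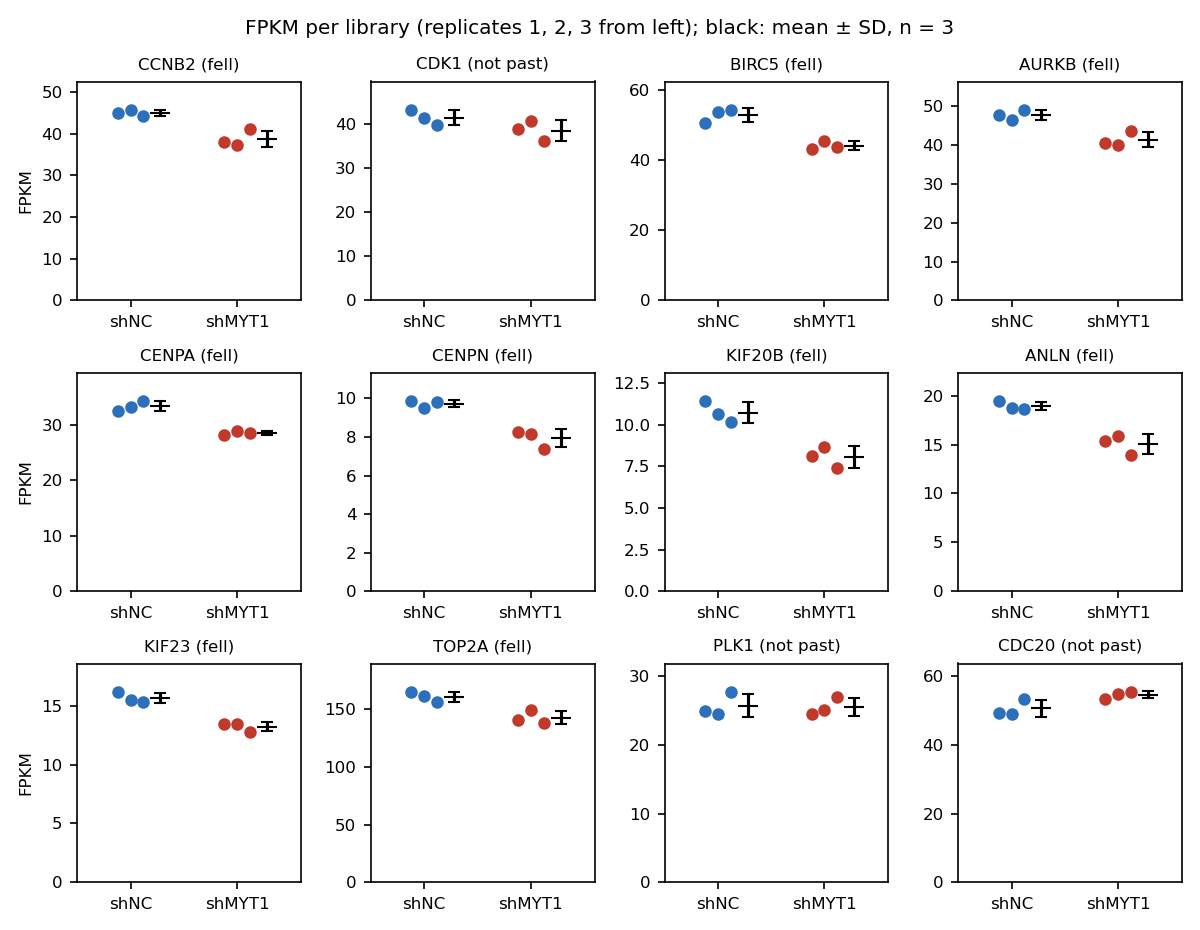
FPKM (y axis, from 0) of 12 members in each library, with replicates 1 to 3 from left to right in shNC and in shMYT1 and the mean ± SD (n = 3) in black. The 9 genes that fell, such as KIF20B at 10.1 to 11.4 against 7.39 to 8.67 FPKM, have separated groups, while CDK1, PLK1 and CDC20 do not.

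Role groups differed in their count of called genes, from 5 of 6 in cytokinesis and 4 of 6 in chromosome structure to 1 of 9 in mitotic entry and 0 of 4 in anaphase promotion. The shares in mitotic entry (11.1%) and in kinesins and spindle factors (14.3%) were near the 12.3% of all tested genes that fell. Among 10 tested cytokinesis genes outside the members 2 fell, with a median log2 fold change of -0.022. Median log2 fold changes were -0.18 for cytokinesis, -0.17 for chromosome structure, -0.16 for the passenger complex and -0.13 for the kinetochore. They were -0.095 for kinesins and spindle factors, -0.077 for the checkpoint, -0.054 for anaphase promotion and -0.050 for entry. These differences between role groups were not tested. In cytokinesis the median deviation from the shNC mean was -0.20, -0.13 and -0.24 in shMYT1 replicates 1, 2 and 3, and between -0.024 and 0.025 in shNC. In mitotic entry it was -0.054, -0.046 and -0.067 in shMYT1 and between -0.0050 and -0.0011 in shNC.

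The pattern was present in each shMYT1 library, with the second the nearest to the controls. The median deviation of the 50 members from their shNC means was -0.11, -0.075 and -0.13 in shMYT1 replicates 1, 2 and 3, against 0.015, -0.0019 and -0.021 in shNC. Between 41 and 43 members lay below their shNC mean in each shMYT1 library, and 17, 27 and 32 did so in shNC replicates 1, 2 and 3. Summed over members, the level was 1883 to 1900 FPKM in shNC and 1734 to 1790 in shMYT1, or 0.630 to 0.640% and 0.567 to 0.585% of all FPKM. Libraries also differed within groups. In shMYT1 replicate 2, 31 members had the highest of the 3 shMYT1 values, in shNC replicate 1, 25 had the highest of the 3 shNC values, and in replicate 3 of both groups 28 had the lowest. These counts were not made over all tested genes, so they do not set the members apart from other genes.

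**Figure D5:**
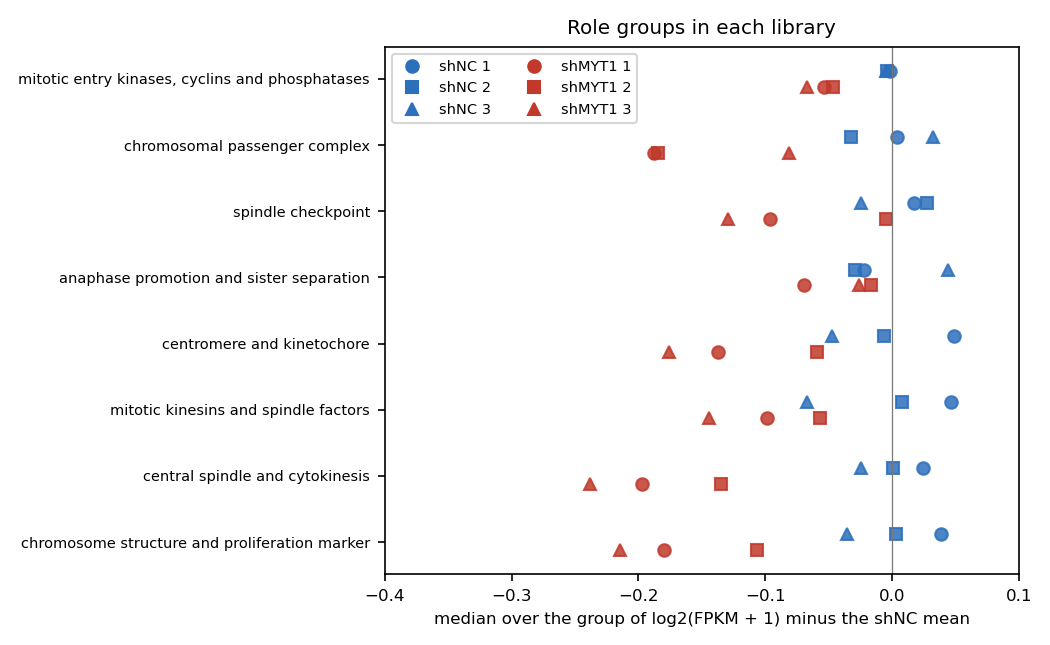
Median over each role group of log2(FPKM + 1) minus the shNC mean (x axis) in each of the 6 libraries, with 1 line of points per role group (y axis), shNC and shMYT1 in separate colours and replicates by marker. The shMYT1 points of cytokinesis lie at -0.24 to -0.13 against -0.024 to 0.025 in shNC, while those of the anaphase group lie at -0.069 to -0.017 and meet the shNC points.

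Other genes of the pathway, 127 tested from 6 lists that hold none of the 50 members, fell in 27 cases (21.3%) and rose in 6, with a median log2 fold change of -0.062 and 87 of 127 below 0. Over all tested genes 12.3% fell and 11.9% rose, the shares to set beside each list that follows. Among 34 other kinetochore and checkpoint subunits 8 fell (23.5%) and 1 rose. SKA1, which couples kinetochores to shortening microtubules, gave 5.46, 5.36 and 6.29 FPKM in shNC and 3.11, 3.76 and 3.53 in shMYT1 (log2 fold change -0.59, limma adjusted p = 0.00281), a deeper fall than that of any of the 50 members. OIP5, a factor of CENPA loading, fell from 12.9 to 10.5 FPKM (-0.27, limma adjusted p = 0.00206). Of 19 other entry regulators 3 fell (15.8%) and 1 rose. WEE1, the kinase that restrains CDK1, gave 9.98, 9.84 and 10.2 FPKM against 8.63, 8.85 and 8.22 without overlap (-0.20, limma adjusted p = 0.0108), a fall about as deep as that of CCNB2. PBK, a mitotic kinase, fell from 48.4 to 36.0 FPKM (-0.41, limma adjusted p = 0.00187). NEK6, a kinase of spindle assembly, rose from 2.65 to 3.69 FPKM (0.36, limma adjusted p = 0.00715).

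Of 31 other spindle, centrosome and kinesin genes 7 fell (22.6%) and 2 rose. Among the falls were HAUS8, an augmin subunit that nucleates spindle microtubules (6.02 to 4.62 FPKM, -0.32, limma adjusted p = 0.00397), and DEPDC1 (17.4 to 14.2 FPKM, -0.28, limma adjusted p = 0.0308). Of 10 other cytokinesis genes tested 2 fell (20%) and 0 rose, with the same counts at an unadjusted limma p under 0.05 and with voom on 9 of them. They were ARHGAP11A (37.2 to 32.2 FPKM, -0.20, limma adjusted p = 0.00609) and the abscission factor CEP55 (23.1 to 20.1 FPKM, -0.19, limma adjusted p = 0.00708). Of 16 cohesin and other condensin genes 5 fell (31.25%) and 0 rose, with 1 higher at an unadjusted limma p under 0.05 and 1 called higher by voom. ESCO2, which acetylates cohesin, fell from 6.60 to 4.94 FPKM (-0.36, limma adjusted p = 0.00305), and the cohesin subunit RAD21 from 56.6 to 48.6 FPKM (-0.22, limma adjusted p = 0.0227). Close to the shares over all tested genes, 2 of 17 subunits and regulators of the anaphase-promoting complex fell (11.8%) and 2 rose. The risers were its subunits CDC16 (12.8 to 15.4 FPKM, 0.25, limma adjusted p = 0.00388) and ANAPC15 (4.37 to 5.38 FPKM, 0.25, limma adjusted p = 0.04999), the latter at the edge of the threshold and not past it in any fit with 1 library left out (0.0548 to 0.128), nor with either other pseudocount, no filter (0.122), rescaling, no variance trend or the replicate block.

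PBK, ESCO2 and RAD21 lie on chromosome 8 among tested genes with median log2 fold changes of -0.27, -0.24 and -0.25, and CDC16 on chromosome 13 among genes with a median of 0.25. With the running median over 51 neighbours subtracted, PBK was at -0.18 and still passed (limma adjusted p = 0.0250), while ESCO2 was at -0.12 (0.0818), RAD21 at 0.016 (0.758) and CDC16 at -0.0057 (0.922). The count of cohesin and other condensin genes that fell was then 1 in place of 5, beside 9.59% of all tested genes in that fit. HAUS8, on chromosome 19, passed at -0.21 (limma adjusted p = 0.0474). The 50 members lie on 18 chromosomes, with running medians of -0.11 to 0.10 at their positions. After the same subtraction 15 of the 17 members that fell still passed, the exceptions being SPC24 and CCNB2 (limma adjusted p = 0.0563). AURKB passed at a value of -0.12 in place of -0.20 (limma adjusted p = 0.0331).

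Among the regulators of these promoters, MYBL2 did not pass, at 81.7, 79.2 and 85.5 FPKM in shNC and 79.5, 77.3 and 86.8 in shMYT1 (log2 fold change -0.017, limma adjusted p = 0.839), as FOXM1 above. E2F1, which drives genes of entry into S phase, gave 82.0, 73.5 and 82.5 FPKM against 66.1, 66.4 and 68.5, without overlap (-0.24, limma adjusted p = 0.0136). The MuvB subunit LIN9 fell from 7.47 to 6.04 FPKM (-0.27, limma adjusted p = 0.0165), and RB1, the repressor of E2F, rose from 7.67 to 10.0 FPKM (0.35, limma adjusted p = 0.00183). RB1 lies on chromosome 13, and with the running median subtracted its value was 0.15 (limma adjusted p = 0.0173). Of the 21 transcription factor and MuvB genes tested 5 fell (23.8%) and 3 rose. CDKN1A, the p21 inhibitor of CDKs that p53 induces, gave 2.21, 2.12 and 2.27 FPKM against 2.50, 1.93 and 2.23, with an interval of -0.18 to 0.19 around its log2 fold change (limma adjusted p = 0.973). Of 12 CDK inhibitor and p53 response genes tested 3 fell (25%) and 2 rose. Among the falls were TP53I3 (30.3 to 24.7 FPKM, -0.28, limma adjusted p = 0.00372) and the CDK inhibitor CDKN2D (8.61 to 7.08 FPKM, -0.25, limma adjusted p = 0.00797). Of 31 DNA replication genes 11 fell (35.5%) and 4 rose, with a median log2 fold change of -0.064. That share is close to the 34% of the mitosis members, beside 12.3% of all tested genes. Among the replication genes the helicase subunit MCM4 fell from 64.7 to 47.7 FPKM (-0.43, limma adjusted p = 0.00027). MCM4 lies on chromosome 8, and with the running median subtracted its value was -0.17 (limma adjusted p = 0.0124). In that fit 11 replication genes fell and 1 rose, beside 9.59% of all tested genes that fell.

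The count of 17 rests on 3 libraries a group, and leaving out 1 library gave 8 to 19 members that fell. Without shNC replicates 1, 2 and 3 in turn it was 8, 9 and 16, with 7.78%, 7.23% and 10.4% of all genes falling. Without shMYT1 replicates 1, 2 and 3 in turn it was 8, 19 and 12, with 7.81%, 9.71% and 8.28% falling. In each of the 6 reduced fits 8 members passed: CCNB2, BIRC5, CENPA, CENPN, KIF20B, KIF23, ANLN and PRC1. The other 9 of the 17 lost their call in at least 1 of those fits. How many of all tested genes passed in each of the 6 was not counted. Exons of 21 members, 10 of the 17 that fell among them, overlap those of another gene, 19 on the opposite strand and 3 on the same strand. With no strand setting given, fragments there cannot be assigned with certainty. The 10 are ANLN, BUB1B, CENPA, CENPN, KIF20A, KIF23, NCAPG, PRC1, RACGAP1 and SPC24. The 3 with an overlap on the same strand are BUB1B, CENPA and PRC1. With each library rescaled to the same FPKM total, 23 members fell and 0 rose, and the calls over all genes moved from 1737 lower and 1683 higher to 2279 lower and 1307 higher.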

How the data were processed

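For the 6 libraries of total RNA the authors deposited their values as FPKM in 1 table. The tools HISAT2 2.0.5 and featureCounts 1.5.0-p3 and the build hg38 are named per the submitters' processing notes. No source used here gives the annotation, the strand setting or any filter. Of 32434 gene IDs, 32301 (99.59%) were found in GENCODE 29, which gave symbols, positions and union exon lengths. FPKM times length came out as whole fragments, within 0.01 and in all 6 libraries, for 95.4% of IDs. On 1 kb of exon, 3 fragments correspond to 0.140 to 0.170 FPKM, a floor for counting error only. Members had at least 317 fragments in each library.

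All genes whose mean reached 1 FPKM entered 1 fit on log2(FPKM + 1), made with limma 3.58.1 under R 4.3.3, with its variance trend and two-sided tests, and p-values were adjusted over all of them by Benjamini-Hochberg. This scale understates changes of low genes. The code was tested on simulated data. Within groups the chi-square per gene between replicates was 2.01 to 3.81, above counting noise, and no libraries were merged. The alternatives changed the filter, pseudocount, scaling, variance model, regional shifts, threshold, replicate block and set of libraries, or used voom on recovered fragments, which called 2130 genes lower and 2001 higher.

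The members, pathway lists and markers were chosen with earlier results of these data known. All 50 members are accounted for. The rule for named genes took up to 3 called members per role group by absolute fold change, or the 2 most abundant where none passed, and up to 2 such genes per pathway list. Other members were described after their values were seen. A gene that the rule selects is not reported here. It always took CDK1, CCNB1, FOXM1, MKI67, TOP2A, BIRC5, ANLN, CENPA, BUB3, MYT1, PKMYT1, WEE1, CDKN1A, MYBL2 and E2F1. CHMP4C was not analysed here, and LIN37 and CDKN2B were under the filter. Of the 6 Schwann cell and glia markers 4 were in the table and 2 reached 1 FPKM, with a summed level of 2.10 to 2.25 FPKM in shNC and 2.55 to 3.26 in shMYT1. Promoters are those of RefSeq on GRCh38.p14.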

Additional observations from a re-analysis of the deposited data

How the results depend on the processing

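Of 740 values of 45 named genes under alternatives, 645 kept their direction and their side of the threshold, 73 lost the call, 9 gained one and 13 changed sign. The number of members that fell, with the share of all genes that did, was 7 at an adjusted p under 0.01 (5.20%), 13 with no filter (4.05%), 14 with no variance trend (11.4%), 16 with the running median subtracted (9.59%), 17 with a pseudocount of 0.1 or 0.5 (12.3% each), 19 with quantile normalization (12.4%), 20 with a minimum of 5 FPKM (17.0%), 23 with rescaling (16.2%) and 25 with voom (16.1%). Leaving out 1 library gave 8 to 19 that fell, beside 7.23% to 10.4% of all genes. It gave 0 to 1 that rose, the 1 being CDC20 without shNC replicate 3. The members' median log2 fold change was -0.13 with rescaling, which moved that of all genes to -0.035, and ran from -0.13 to -0.085 with 1 library left out. MYT1, at -0.28, was not past an adjusted p of 0.01, and with 1 library left out its limma adjusted p was 0.0218 to 0.0387. With no filter SPC24 (limma adjusted p = 0.105), SMC2 (0.0906), NCAPG (0.0621), TOP2A (0.0512), RAD21 (0.0590) and DEPDC1 (0.0798) lost their calls. With no variance trend, where 14 members fell in place of 17, SPC24 (0.0781) and SMC2 (0.0556) did among the members that the rule names. Calls were gained with rescaling by CCNB1 (limma adjusted p = 0.0186), INCENP (0.0265), TTK (0.0449), KIF4A (0.0488), TPX2 (0.0170) and MKI67 (0.0235), and with voom by CCNB1 (0.0401), INCENP (0.0262), TTK (0.00304), SPC25 (0.0280), KIF4A (0.0264), TPX2 (0.0325), ECT2 (0.00504), SMC4 (0.0477) and MKI67 (0.0118). INCENP also passed with the running median subtracted (0.0250). Voom called more genes lower among other kinetochore and checkpoint subunits (13 against 8), entry regulators (5 against 3) and spindle genes (11 against 7). With the running median subtracted, PTTG1 was at 0.022, CDC16 at -0.0057, RAD21 at 0.016 and CDKN1A at -0.0077. CDKN1A was at -0.020 with rescaling. With 1 library left out, values ran from -0.057 to 0.071 for CDKN1A, -0.073 to 0.016 for PTTG1, -0.046 to 0.032 for PKMYT1 and -0.065 to 0.017 for MYBL2. The signs that changed are of genes that did not pass, except CDC16 and RAD21, and the cause was not tested.

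Deviations of libraries with the same replicate number correlated at 0.033, 0.013 and 0.043, so the numbers were not taken as pairs, although each library correlated best with its own number. With the replicate number as a block, 22 members fell and 0 rose, beside 12.3% of all genes that fell, and 16 of the 17 were among them. The exception was SPC24 (limma adjusted p = 0.0887 with the block). INCENP (0.0481), TTK (0.0365), UBE2C (0.0451), KIF4A (0.0333), ECT2 (0.0397) and MKI67 (0.0498) passed with the block. With 3 libraries a group, a member that did not pass is not shown to be level.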
